A study of Homo sapiens with 3 samples.

Results

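The genes described here are the pumps that carry etoposide out of cells and the enzymes that metabolize it: ABCB1, ABCC1, ABCC2, ABCC3, ABCG2, CYP3A4, CYP3A5 and UGT1A1. These 8 genes were looked up by name among the 27274 gene names on the array, and 7 of them had a probe under that name, with 10 probes in all. HepG2, an established human hepatocellular carcinoma line, was cultured for 30 h with 0 μM (control cells), 10 μM (low dose) or 100 μM (high dose) etoposide. Control cells were untreated according to the labels, whereas the paper refers to the solvent DMSO. Total RNA of each condition was hybridized to 1 single-color Agilent array, so every difference below lies between 1 culture and another and no test between conditions was possible. RNA came from whole cultures, in which fewer cells and less RNA per cell cannot be told apart.

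Etoposide is a topoisomerase II poison. P-glycoprotein (the product of ABCB1), the multidrug resistance proteins (ABCC1, ABCC2 and ABCC3) and the breast cancer resistance protein (ABCG2) are ATP-binding cassette (ABC) pumps; in hepatocytes ABCB1, ABCC2 and ABCG2 face the bile canaliculus, whereas ABCC3 faces the blood. CYP3A4 and CYP3A5 are cytochromes P450 that convert etoposide to a catechol, and UGT1A1 conjugates it with glucuronic acid for excretion.

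None of the members passed 2-fold at either dose, but 4 of the 5 that were well above background on all arrays had a higher signal than in control cells at both doses when each gene was read from its brightest probe. The second probe of ABCB1 was lower at the low dose. The largest difference was that of ABCC3 at the high dose, just under 2-fold, followed by CYP3A5. ABCB1 and ABCC1 showed smaller differences, ABCC2 was level, ABCG2 was well above background only in control cells and CYP3A4 on no array. Signals below, unless called unscaled or before scaling, were scaled to the control array by the 75th percentile of each array. The error beside a log2 value comes from the spread between spots of repeated probes of like brightness. That spread was divided by the square root of the number of spots of the probe. The error is therefore smaller for the first ABCB1 probe, spotted 10 times, than for probes spotted once. This error covers 1 array and leaves out the spread between cultures.

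**Figure D1:**
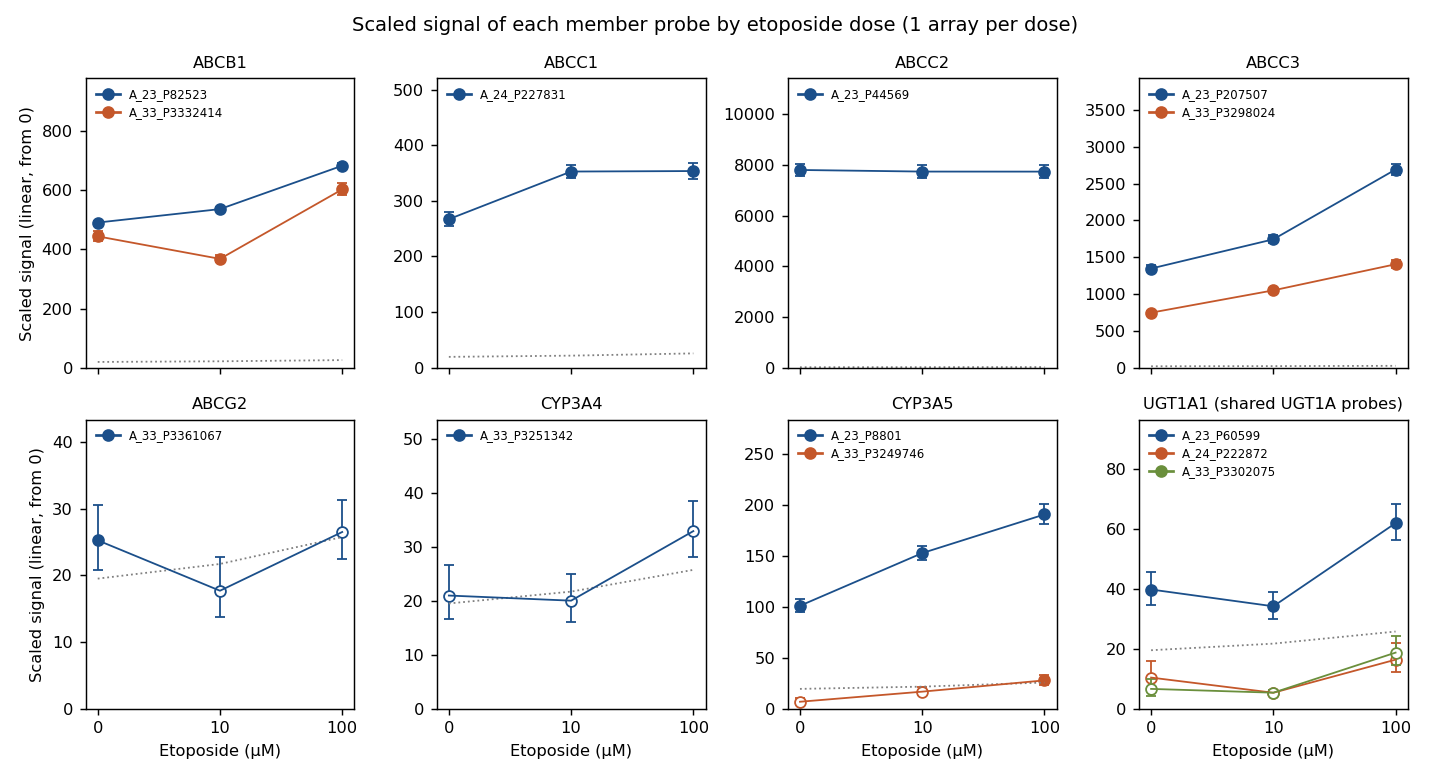
Scaled signal (linear axes from 0, arbitrary units) of every member probe and of the shared UGT1A probes against etoposide dose (evenly spaced, not to scale), 1 array per dose, with bars for the error from the spread between spots. Open circles are signals not well above background, and the dotted line is the lowest signal well above background. The first ABCC3 probe goes from 1347 in control cells to 2692 at 100 μM, whereas ABCC2 stays between 7742 and 7807.

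ABCB1 was measured by a pair of probes, which are shown because they lie far apart in the gene and differed at the low dose. Both lie on the minus strand of chromosome 7 in hg18. The first, at chr7:86973249-86976539, spans 3291 genomic bases with its 60 bases and thus crosses an intron. Its capitals mark the bases that code for the start of the ABC signature motif, a conserved part of the nucleotide-binding domain. The second, at chr7:87067371-87067430, lies near the start of the coding sequence.
ABCB1 first probe: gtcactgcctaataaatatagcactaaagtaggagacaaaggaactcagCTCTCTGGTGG
ABCB1 second probe: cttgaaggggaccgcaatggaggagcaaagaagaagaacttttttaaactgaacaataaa

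The first ABCB1 probe was spotted 10 times on each array. Before scaling, its spots read 468 to 522 (median 488) in control cells, 534 to 592 (median 560) at 10 μM and 550 to 612 (median 566) at 100 μM. On this unscaled signal, the spots of the control array did not overlap those of the other arrays, whereas those of both doses overlapped each other. The arrays differed in brightness as a whole, with 75th percentiles of 514, 536 and 432. How many of the 999 repeated probes also failed to overlap was not counted. After scaling, the mean signals of this ABCB1 probe were 490, 536 and 683. The low dose was thus 1.09-fold of control (log2 0.13, error 0.02), with ratios between spots at the same place on the arrays of 1.03 to 1.16, and the high dose 1.39-fold (log2 0.48, error 0.02), with such ratios of 1.36 to 1.44. The second probe, spotted once, read 444, 368 and 602. It was 1.21-fold lower at the low dose (log2 -0.27, error 0.07) and 1.36-fold higher at the high dose (log2 0.44, error 0.07). The probes therefore opposed each other at the low dose, by -0.40 on the log2 scale (error 0.08), and differed by -0.04 (error 0.08) at the high dose. Both put the high dose above the low dose, by 1.27-fold with the first probe and 1.64-fold with the second. Without scaling, the first was closer to level, at -0.04 on the log2 scale for the low over the high dose.

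ABCC1, which exports glutathione conjugates as well as drugs, had 1 probe (NM_019862, chr16:16143525-16143584, plus strand). Its scaled signals were 267, 353 and 354. Both doses were 1.32-fold of control (log2 0.40, with errors of 0.08 and 0.09), and the doses differed from each other by less than the spot error. Scaling by the median of all probes instead brought the high dose to 0.12 on the log2 scale.

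ABCC2, the canalicular pump for conjugated bilirubin, had 1 probe (NM_000392, chr10:101601312-101601371, plus strand). Its sequence, from the end of the coding part, is shown because this signal, chosen after its values were seen, serves as a yardstick for the other members.
ABCC2: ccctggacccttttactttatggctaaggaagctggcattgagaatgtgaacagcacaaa

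The scaled signals of ABCC2 were 7807, 7744 and 7742, a log2 difference of -0.01 at each dose (errors 0.06 and 0.07). The sign of this value turned with the scaling, which moved it between -0.30 and 0.05 at the high dose. Relative to ABCC2 on the same array, where scaling by 1 factor per array cancels, ABCC3 was higher by 0.38 (error 0.09) at the low dose and 1.01 (error 0.09) at the high dose on the log2 scale. CYP3A5 was higher by 0.61 (error 0.13) and 0.93 (error 0.14). The corresponding values were 0.14 (error 0.07) and 0.49 (error 0.07) for ABCB1 and 0.41 (error 0.10) and 0.42 (error 0.11) for ABCC1. Such a ratio shows that the genes differed unequally, and not that ABCC2 itself was level.

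ABCC3, a pump of the blood-facing membrane that carries glucuronides, was also measured by a pair of probes, at chr17:46123700-46123759 (NM_003786) and chr17:46100219-46100278 (NM_001144070), both on the plus strand. The sequence of the second is given because it measures the same pattern from another stretch of the gene and a separate transcript accession.
ABCC3 second probe: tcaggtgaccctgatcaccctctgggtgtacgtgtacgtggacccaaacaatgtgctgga

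The first ABCC3 probe had scaled signals of 1347 in control cells, 1744 at 10 μM and 2692 at 100 μM. The low dose was 1.29-fold of control (log2 0.37, error 0.06) and the high dose 1.998-fold (log2 0.999, error 0.06), just short of the 2-fold threshold. The second probe read 748, 1051 and 1405, which is 1.41-fold (log2 0.49, error 0.06) and 1.88-fold (log2 0.91, error 0.07) of control. The probes differed by 0.12 (error 0.09) and -0.09 (error 0.10) on the log2 scale. The signal thus stepped up from control to low dose to high dose with both, the high dose exceeding the low dose by 1.54-fold and 1.34-fold. Of all genes given a fold, lower bounds included, 6.85% had a larger log2 difference than ABCC3 at the high dose and 16.0% at the low dose. Over the scaling alternatives, the high-dose value lay between 0.71 and 1.06, and it passed 2-fold under some of them.

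ABCG2 (NM_004827, chr4:89230527-89230586, minus strand) was well above background only in control cells, with unscaled signals of 25.3 there, 18.5 at 10 μM and 22.3 at 100 μM. After scaling these were 25.3, 17.7 and 26.5, so the high dose did not lie below control cells. The low dose was at least 1.16-fold lower, a bound smaller than its spot error of 0.45 on the log2 scale, and no fold is given for the high dose.

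CYP3A4 (NM_017460, chr7:99192540-99192599, minus strand) had unscaled signals of 21.0, 20.9 and 27.7 and was not well above background on any array. The lowest signals called well above background were 19.5, 22.7 and 21.6, so the main hepatic P450 of etoposide metabolism was near the limit of the array and has no fold.

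CYP3A5 was measurable. The brighter of its probes (NM_000777, chr7:99083835-99083894, minus strand) had scaled signals of 101, 153 and 190. The low dose was 1.51-fold of control (log2 0.60, error 0.12) and the high dose 1.89-fold (log2 0.92, error 0.12). These differences exceeded the spot error, and 8.82% and 8.37% of all genes given a fold, lower bounds included, had a larger one. The doses differed by 1.25-fold (log2 error 0.10), with the low dose below the high dose by log2 values of -0.39 to -0.01 over the scalings, so that the size of this difference depends on the scaling. The second probe (chr7:99115436-99115495) was well above background only at the high dose, with unscaled signals of 6.90, 17.5 and 23.4. The 100 μM signal exceeded that of control cells by at least 1.43-fold, a bound within its spot error of 0.69 on the log2 scale.

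CYP3A7, the fetal paralog of these P450s and no member of the set, is given because its transcript closely resembles that of CYP3A5. Its brighter probe read 160, 273 and 286 before scaling and was 1.64-fold and 2.13-fold of control after it, and the dimmer was 1.49-fold and 2.002-fold. Scaling by the median instead lowers high-dose values over control by 0.29 on the log2 scale, which puts both probes below 2-fold. The CYP3A7 and CYP3A5 log2 differences were apart by 0.11 (error 0.15) at the low dose and 0.17 (error 0.15) at the high dose. A share of signal passing between the probes was not tested.

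UGT1A1 had no probe under its own name in the data used here. The UGT1A enzymes share their last exons, and 3 probes named UGT1A6 or UGT1A8 list the UGT1A1 transcript NM_000463 among 4 RefSeq transcripts. Their signals cannot be assigned to UGT1A1. The sequence of the probe at chr2:234341260-234341319 (plus strand) is given as an example of this shared coding stretch.
UGT1A shared probe: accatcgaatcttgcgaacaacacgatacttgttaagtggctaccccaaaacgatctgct

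This shared probe read 10.4, 5.58 and 13.8 before scaling, and that at chr2:234345951-234346010 read 6.63, 5.60 and 15.7. Neither was well above background on any array. The third, at chr2:234346346-234346404, was well above background on all 3 arrays, with scaled signals of 39.7, 34.1 and 61.9. It was 0.859-fold of control at the low dose (log2 -0.22, error 0.28), within the spot error, and 1.56-fold at the high dose (log2 0.64, error 0.25).

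**Figure D2:**
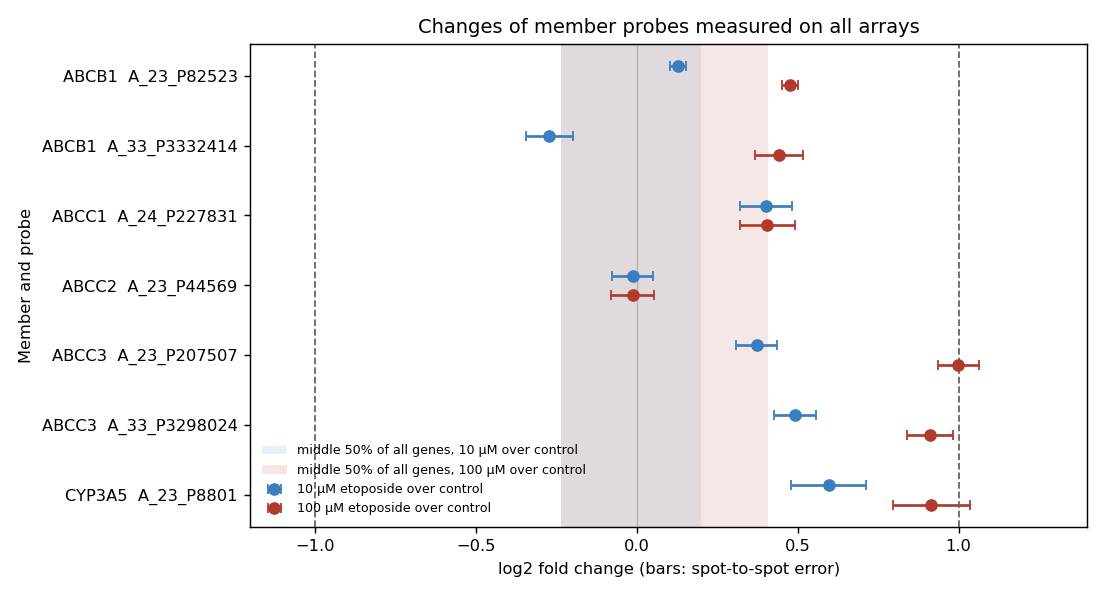
Log2 difference from control cells of the member probes well above background on all arrays, for 10 μM and 100 μM etoposide, 1 array per condition. Bars give the error from the spread between spots, shaded bands the middle 50 percent of all genes and dashed lines 2-fold. The first ABCC3 probe lies farthest to the right at 100 μM, at 0.999, and ABCC2 lies at -0.01 for both.

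Counted by gene, 6 members were well above background in at least 1 condition of each dose against control. At the low dose 0 were over 2-fold higher, where 3.37% of all genes were, and 0 were over 2-fold lower, where 1.6% were. At the high dose the counts were again 0 and 0, against 6.76% and 3.66% of all genes. That excess of higher genes (1148 against 622 lower) turned with the scaling, to 589 higher and 1185 lower with the median, 637 and 1076 without scaling, 753 and 919 with spike-in controls and 783 and 789 with quantile normalization. Between the low and the high dose, 0 members of 5 passed 2-fold, where 3.63% of all genes were higher and 3.95% lower at the low dose. These 610 higher and 663 lower genes became 917 and 313 with the median, 1002 and 288 without scaling, 842 and 342 with spike-in controls and 735 and 389 with quantile normalization. With so few members, these percentages give less than 1 gene, and a count of 0 is near the background. The median log2 difference of the 5 members measured on both arrays was 0.37 at 10 μM and 0.48 at 100 μM. Over all 15449 and 15466 genes measured, the medians were -0.03 and 0.09, and the middle 50 percent of genes lay between -0.24 and 0.20 and between -0.24 and 0.41. For the low dose over the high dose the member median was -0.32 and that of all genes -0.10, with 1 member higher and 4 lower, although ABCC1 and ABCC2 were level there and changed sign with the scaling. The doses share the control array, so their values are not independent. CDKN1A, the p21 gene and a well-known p53 target, was 7.94-fold and 7.07-fold of control.

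**Figure D3:**
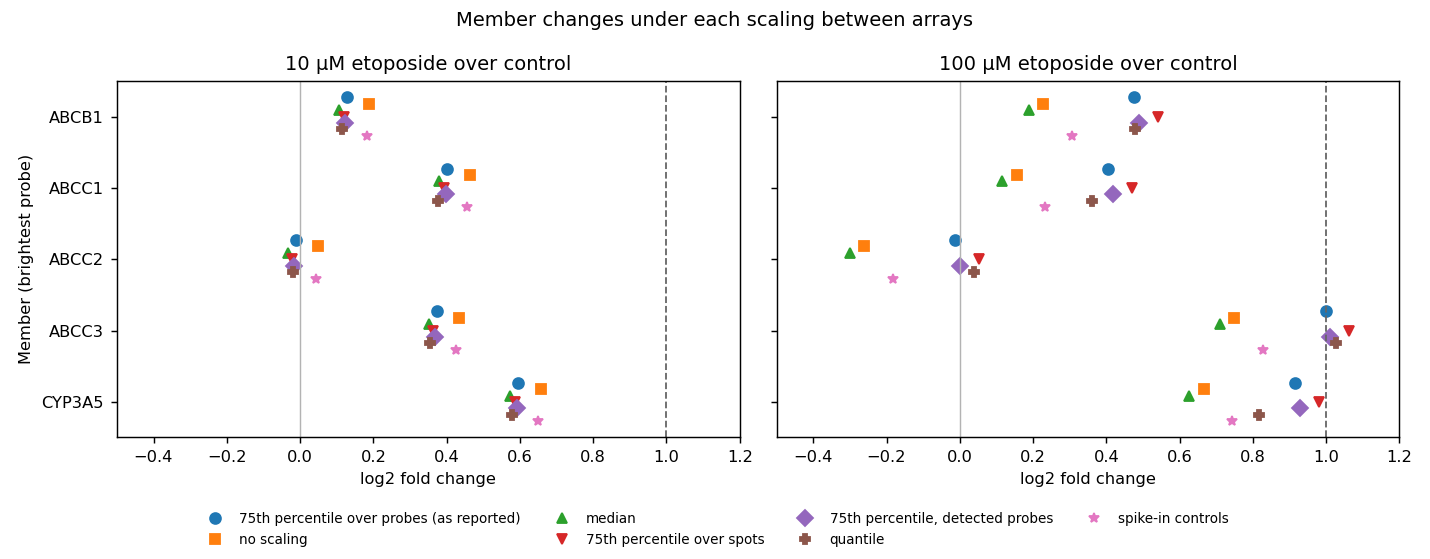
Log2 difference from control cells of the members well above background on all arrays under each way of scaling the arrays, 1 array per condition. ABCC3 at the high dose lies between 0.71 and 1.06 and CYP3A5 between 0.63 and 0.98, whereas ABCC2 falls on both sides of 0.

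Several families around the members were read in the same way. In lists this short, a count of 0 past 2-fold is near the shares of all genes given above. Of 43 other ABC genes, 33 were tested at the high dose. Of these, 3 were over 2-fold higher and 0 lower, where 6.76% and 3.66% of all genes were, so these counts are near the background. Their median was 0.38 (17 higher and 11 lower of 28), and it lay between 0.09 and 0.45 over the scalings. The median of all genes, 0.09, moved with the scaling as well. At the high dose ABCA5 was 2.39-fold of control (log2 1.25, and 0.65 at the low dose), whereas ABCA3 and ABCC8 have only bounds, of at least 2.58-fold and 2.32-fold. With scaling by the median, ABCA5 and the bound of ABCC8 also fell below 2-fold, whereas the bound of ABCA3 did not. ABCA2 followed at 0.98, and ABCB10 and ABCE1, which act in mitochondria and in ribosome recycling, stood lower, at -0.78 and -0.69. At the low dose 1 of 31 was over 2-fold higher, ABCA12 with a bound of at least 2.19-fold, where 3.37% of all genes were. The median of the ABC genes there was 0.00. ABCA3, ABCC8 and ABCA12, and GSTP1, NR1H4, NR1I2 and NR1I3 below, were named after their values were seen.

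Of the other 7 P450 genes that the xenobiotic receptors PXR and CAR are known to control, or that belong to the CYP3A cluster, 6 had a probe and 2 were measured. CYP3A7 passed 2-fold at the high dose, though not with scaling by the median, and CYP2B6 stood at 0.06 and 0.15. None of the 3 electron donors of the P450s passed 2-fold. POR, the reductase that feeds them, stood at -0.15 and 0.15, and CYB5A at -0.65 and -0.09. Of 20 other UGT genes, 12 had a probe, 4 were measured on all arrays and 0 passed. All 4 were lower at the low dose (median -0.36, where that of all genes was -0.03), among them UGT2B7 at -0.33, UGT2B10 at -0.38 and UGT2B11 at -0.40. The other, UGT1A6 at -0.22, was within its spot error of 0.28 and is the shared UGT1A probe described above. Their high-dose median of 0.16 turned sign with the scaling, between -0.13 and 0.23. Among 7 enzymes that act on the catechol and quinone of etoposide, NQO1 stood at -0.17 and -0.09 and GSTT1 at 0.06 and 0.61. GSTP1, a glutathione transferase, was well above background only at the high dose, at least 2.41-fold higher. With scaling by the median, this bound fell below 2-fold.

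Among 22 transcription regulators of pumps and drug enzymes, 21 were tested. At the low dose 0 were over 2-fold higher and 1 lower, where 3.37% and 1.6% of all genes were. The lower one was the bile acid receptor gene NR1H4, whose signals were 1217, 548 and 946 before scaling (log2 -1.21, and -0.11 at the high dose). At the high dose 1 was higher and 0 lower, where 6.76% and 3.66% of all genes were. The higher one was ONECUT1, with 34.6, 43.1 and 77.4 before scaling (log2 1.41). Counts of 0 and 1 are too small to set the regulators apart from all genes. AHR, the dioxin receptor, stood at 0.82 and 0.88, whereas YBX1 stood at -0.53 and -0.85 and CEBPB at -0.16 and -0.70. NR1I2, which encodes PXR, stood at -0.07 and 0.36, and NR1I3, which encodes CAR, at 0.90 at the high dose with a spot error of 0.36. The medians of the group were -0.12 and -0.07.

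Of 7 hepatic uptake carriers, 4 were measured on all arrays, and their medians were -0.29 and 0.91. SLC10A1, the sodium-dependent bile acid carrier, had signals of 343, 106 and 520 before scaling, with log2 differences of -1.76 and 0.85. SLCO2B1, an organic anion carrier, stood at -0.07 and 0.98. None of the 5 anchors of apical pumps passed 2-fold over control. RDX, which encodes radixin, the anchor of ABCC2, stood at 0.16 and -0.27, EZR at 0.49 and 0.35 and PDZK1 at -0.74 and 0.35.

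**Figure D4:**
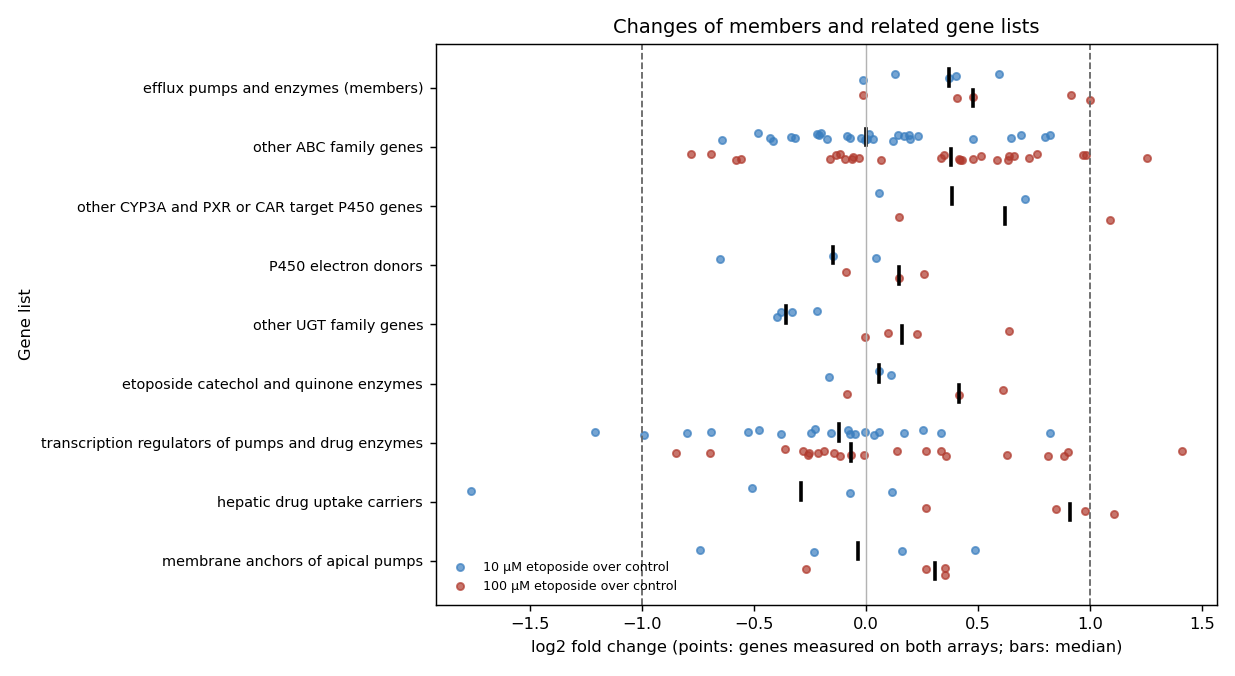
Log2 differences from control cells of the members and of the gene groups named above for 10 μM and 100 μM etoposide, 1 array per condition. Points are genes well above background on both arrays, bars are medians and dashed lines mark 2-fold. The other ABC genes have a median of 0.38 at 100 μM (0.09 to 0.45 over the scalings), and the UGT genes a median of -0.36 at 10 μM.

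Among the genes with the pattern closest to that of ABCC3, by the distance of the log2 differences at both doses over 15177 genes, were ATG4A at 0.01 and SLC39A4 at 0.03. In all, 42 genes lay within the ABCC3 error of 0.09, so these are not set apart.

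All arrays lay on 1 slide, with 19836 to 20153 of 34127 probes well above background. All 10 hepatocyte markers, albumin included, were well above background on all arrays. So were 4 of 5 leukocyte markers, with summed scaled signals of 1635, 1982 and 3407 against at least 455528 for the hepatocyte list, 2 of 4 endothelial markers (353 to 535) and 0 of 5 fibroblast markers (66.4 to 114). CD14 was higher by 1.12 and 2.08 on the log2 scale. The part of these markers in the member values was not tested.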

How the data were processed

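HepG2 cells given 0, 10 or 100 μM etoposide for 30 h were profiled on 1 single-color array each. The authors deposited the output of Agilent Feature Extraction 10.7.3.1, whose intensity is background-subtracted and detrended within an array, with probe positions on hg18. The deposited series table held the same intensity for 44495 of 44495 rows (relative tolerance 1e-06). Normalization by the authors is not given in the sources used here.

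From the deposited intensity, log2 values were averaged over the spots of a probe, without control and outlier spots, and set relative to the array's 75th percentile, each probe counted once. A fold needed a brighter signal well above background in most spots, and a dimmer signal below it was raised to the lowest such signal, giving a bound. A gene was read from its brightest probe. The spot error was the median spread between spots of the 50 repeated probes nearest in signal, divided by the square root of the probe's number of spots. The number of arrays limits the precision, and there are no replicates. Fold thresholds of 1.5, 2 and 3, other scalings (quantile normalization in limma 3.58.1, R 4.3.3), normexp with an offset of 50, filters and probe rules were compared. Scripts ran in Python 3.11.15 and were tested on simulated data. All 10 member probes' accessions were found in a RefSeq table.

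Members and lists were chosen with earlier results of these data known. Named are all members, CDKN1A, the 3 genes nearest to the member with the largest high-dose difference, and of each list the 2 highest and the 2 lowest at the high dose among genes above background on all arrays. Some genes that this rule selects are not reported here. Others were named after their values were seen. Sequences are those of the deposited probes.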

Additional observations from a re-analysis of the deposited data

How the results depend on the processing

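None of the members passed 2-fold with the settings of the report. At the high dose against control, 1 member (ABCC3) passed with the percentile over all spots, 1 when only probes above background on every array entered it and 1 with quantile normalization, and 2 (ABCC3 and CYP3A5) passed at a threshold of 1.5-fold. At 1.5-fold, 1 member passed for the low dose against control (CYP3A5) and 1 for the low against the high dose (ABCC3, lower). All genes past 1.5-fold were not counted, but minimum shares of the genes given a fold are known. For 10 μM, 8.82% had a larger difference than CYP3A5, at 1.51-fold. For 100 μM, 16.6% exceeded the third shared UGT1A probe, at 1.56-fold. Between the doses, 12.8% lay below ABCC3, which was 1.54-fold lower. Passing 1.5-fold was therefore common among all genes. At 3-fold the count of members was 0 in all 3 comparisons, and the other alternatives gave 0. Of 260 member probe values over the alternatives, 197 moved by less than the spot error and 63 by more. Over the 6 scaling alternatives the sign turned in 4 of 24 results, those of ABCC2 and the ABCC1 difference between doses. Scaling by the median shifted the median of all genes at the high dose by -0.29 on the log2 scale and no scaling by -0.25, which lowered the ABCC3 value to 0.71 at the lowest. Genes over 2-fold higher numbered 253 to 1248 at the low dose (564 in the report) and 385 to 3245 at the high dose (1148), the extremes coming from normexp and from no filter on dim probes. Genes over 2-fold lower numbered 86 to 956 (268) and 425 to 1185 (622). For the low over the high dose the ranges were 400 to 1002 higher (610) and 153 to 2558 lower (663). The balance of higher and lower genes turned with the scaling for the high dose against control. No paired analysis was possible because there was a single culture per dose, and for the same reason no array could be left out.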
